A study of Mus musculus with 12 samples.

Results

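Interferon-stimulated genes are the antiviral and regulatory genes that cells switch on after interferon, and 49 of them, given as a list of named mouse genes, were followed here across microglia of CPEB1 knockout and wild-type mice with and without lipopolysaccharide (LPS). All 49 were present among the 23845 genes of the deposited tables, and all 49 passed the filter on low counts that kept 15295 genes. Microglia, which are brain-resident macrophages, were isolated on Percoll gradients from C57BL6/J mice of 3 to 4 months, and poly(A) libraries were made from total RNA, with 1 animal per library and 3 libraries in each of 4 groups. The groups were CPEB1-KO-LPS (knockout mice injected with LPS 24 h before collection), CPEB1-KO (knockout mice, no LPS), WT-LPS (wild-type mice injected with LPS 24 h before collection) and WT (wild-type mice, no LPS). LPS is a component of the outer membrane of Gram-negative bacteria, and the CPEB1 protein binds RNA and sets the poly(A) tail length and translation of its target mRNAs. The labels name neither the deleted part of Cpeb1 nor a promoter that restricts the deletion to a cell type, and the LPS dose and the animals' sex were not found in the labels.

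Type I interferons bind a receptor of the IFNAR1 and IFNAR2 chains, whose kinases JAK1 and TYK2 phosphorylate transcription factors. A complex of these that contains IRF9 binds interferon-stimulated response elements in promoters and switches on the genes described here. In macrophages and microglia, LPS acts through the receptor TLR4, whose TRIF branch activates the kinases TBK1 and IKKε, the factor IRF3 and the transcription of interferon-β, so that an interferon response follows the inflammatory one. The induced proteins detect viral RNA, block its translation, degrade it, act on viral entry or release, or switch the signal off again.

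Library totals lay between 5.02 and 13.5 M expected counts (M: 1e+06 counts). Cpeb1, the targeted gene, was present in every library labelled knockout, at 34.6, 40.6 and 24.04 TPM (transcripts per 1e+06 transcripts) in CPEB1-KO-LPS and 17.6, 26.4 and 21.2 TPM in CPEB1-KO, against 40.2, 24.1 and 45.1 TPM in WT-LPS and 19.9, 15.5 and 43.2 TPM in WT. These gene totals do not show which exons the reads came from, so they do not check the knockout label. The 10 microglia markers were detected in all groups, at a summed 730 to 2817 TPM in CPEB1-KO-LPS, 3116 to 4388 TPM in CPEB1-KO, 1353 to 4448 TPM in WT-LPS and 6061 to 7278 TPM in WT, and markers of the 12 other cell types listed were detected as well. Neuron markers summed to 2937 to 5007 TPM in CPEB1-KO-LPS, 4197 to 5770 TPM in CPEB1-KO, 2323 to 6552 TPM in WT-LPS and 1510 to 4351 TPM in WT, with replicate 1 the highest of WT-LPS and of WT. Monocyte markers summed to 102 to 157 TPM in CPEB1-KO-LPS, 20.2 to 90.8 TPM in CPEB1-KO, 244 to 494 TPM in WT-LPS and 41.4 to 63.0 TPM in WT. In bulk libraries of this kind, fewer cells of a type and less RNA per cell cannot be told apart.

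Interferon-stimulated response elements repeat the letters GAAA, so promoters were searched for GAAANNGAAA (TTTCNNTTTC when read on the other strand), overlapping matches included, in the window from 250 bases before to 50 after the RefSeq start site of build GRCm38.p6. Of the 49 genes, 38 had an entry, and 16 of these 38 (42.1%) held the letters, against 1079 of 27025 promoters (3.99%) and 429 of the 11473 promoters of tested genes (3.74%). The stretches below hold the matches of 7 genes, 5′ to 3′ on the strand of the gene, with the matches in capitals. Isg15, Ifit1 and Rsad2 are shown because they were higher in WT-LPS than in WT, and Oas3, Oas1a, Oas1g and Bst2 because they carry the same letters and were not called.
Isg15, chr4:156200835-156200956, - strand: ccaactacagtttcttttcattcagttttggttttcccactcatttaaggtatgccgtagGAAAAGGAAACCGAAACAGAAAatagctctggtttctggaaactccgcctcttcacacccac
Ifit1, chr19:34640725-34640853, + strand: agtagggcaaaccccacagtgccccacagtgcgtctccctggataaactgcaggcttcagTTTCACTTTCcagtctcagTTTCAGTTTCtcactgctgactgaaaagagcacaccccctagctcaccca
Rsad2, chr12:26456523-26456632, - strand: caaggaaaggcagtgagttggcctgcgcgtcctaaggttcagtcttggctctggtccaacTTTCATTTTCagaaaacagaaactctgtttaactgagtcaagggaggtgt
Oas3, chr5:120777685-120777794, - strand: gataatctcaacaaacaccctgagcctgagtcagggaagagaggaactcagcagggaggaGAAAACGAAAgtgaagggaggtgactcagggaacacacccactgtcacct
Oas1a, chr5:120907526-120907605, - strand: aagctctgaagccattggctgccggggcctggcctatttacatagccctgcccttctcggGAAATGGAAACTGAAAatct
Oas1g, chr5:120887614-120887691, - strand: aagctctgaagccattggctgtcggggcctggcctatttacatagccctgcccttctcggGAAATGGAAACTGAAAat
Bst2, chr8:71537547-71537662, - strand: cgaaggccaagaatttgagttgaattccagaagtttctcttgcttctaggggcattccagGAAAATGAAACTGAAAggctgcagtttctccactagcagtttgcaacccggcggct

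Isg15 had 3 overlapping matches in a row, Oas1a, Oas1g and Bst2 had 2 that overlap, Ifit1 had 2 apart from each other on the opposite strand, and Rsad2 and Oas3 had 1. Over the 78 positions that the Oas1a and Oas1g stretches share, 77 were identical (98.7%), as these neighbouring genes are near copies. The letters were about as frequent in genes that passed the test as in those that did not: they were present in 9 of 21 promoters (42.9%) of genes higher in WT-LPS than in WT and in 7 of 17 promoters (41.2%) of genes not called. A match describes the letters only and was not tested as a binding site. No entry was matched for Mx1, Oas2, Tor3a, Parp9, Ly6e, Dhx58, Parp14, Ifi27l2a, Rtp4, Mx2 and Usp18.

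**Figure D1:**
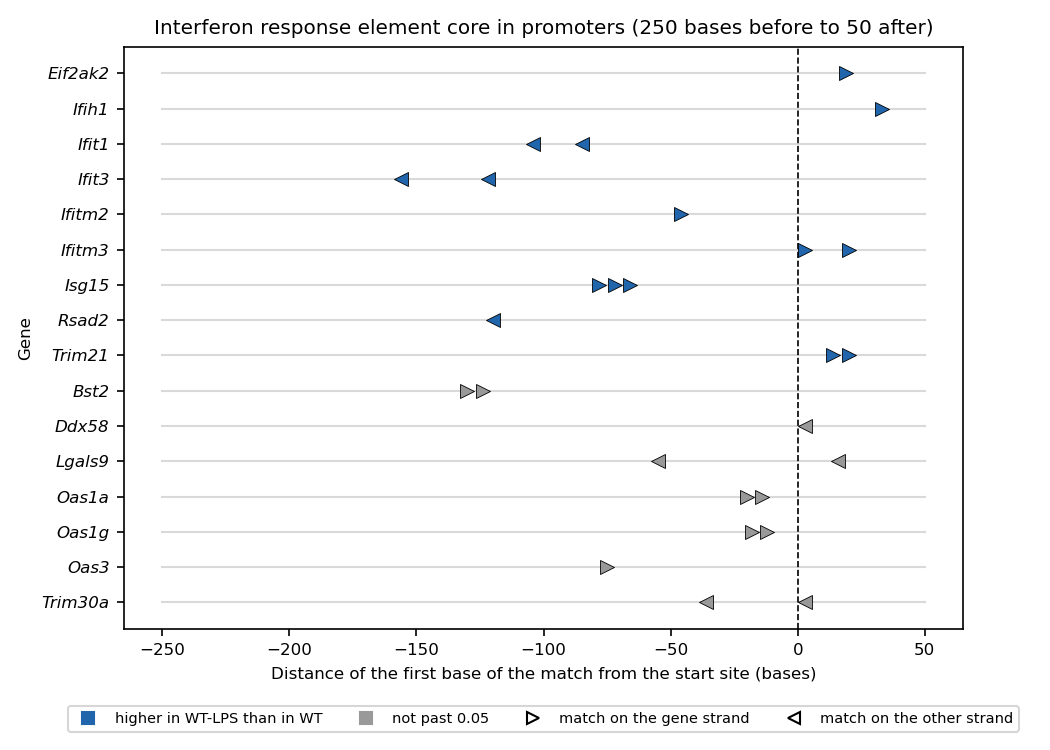
Position of each GAAANNGAAA match in the 16 promoters that hold one, as distance in bases of its first base from the start site (dashed line at 0). Triangles pointing right are matches on the strand of the gene and those pointing left on the other strand; blue genes were higher in WT-LPS than in WT, grey genes did not pass 0.05, and both kinds hold matches on each side of the start site.

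Many interferon-stimulated genes were higher after LPS in both genotypes. In knockout mice 14 of 49 genes were higher in CPEB1-KO-LPS than in CPEB1-KO and 0 were lower, where 4.10% of all 15295 tested genes were called higher and 2.12% lower (edgeR's quasi-likelihood test, Benjamini-Hochberg adjusted p under 0.05). In wild-type mice 27 of 49 were higher in WT-LPS than in WT and 0 were lower, where 12.4% of all tested genes were called higher and 14.9% lower. At an unadjusted p under 0.05, 32 genes were above their untreated group in each genotype and 0 were below it, where 11.8% of all tested genes were above and 8.66% below in knockout mice, and 18.5% above and 22.2% below in wild-type mice. DESeq2 called 21 higher and 0 lower in knockout mice, where it called 6.39% of all genes higher and 4.43% lower, and 29 higher and 0 lower in wild-type mice, where it called 16.0% higher and 17.2% lower. The median log2 fold change of the 49 genes was 1.27 in knockout mice, beside -0.0002 over all tested genes, and 1.38 in wild-type mice, beside -0.03 over all tested genes. Estimates were positive for 46 of 49 genes in knockout mice and for 42 of 49 in wild-type mice. In TPM, every CPEB1-KO-LPS library lay above every CPEB1-KO library for 29 of 49 genes, against 16.2% of all tested genes, and every WT-LPS library lay above every WT library for 38 of 49, against 27.4% of all tested genes.

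In both genotypes 12 genes were higher, which is 12 of the 14 called in knockout mice and 12 of the 27 called in wild-type mice. Over all tested genes 479 (3.13%) were called higher in both, which is 76.4% of the 627 called higher in knockout mice and 25.2% of the 1900 called higher in wild-type mice. The 12 were Ifih1, Oasl1, Oasl2, Ifit3, Mx1, Mx2, Rsad2, Ifitm2, Ifitm3, Isg15, Xaf1 and Rtp4. Another 15 passed in wild-type mice alone, 2 (Ifi35 and Nmi) passed in knockout mice alone, and 20 passed in neither. Passing in 1 genotype does not show that the genotypes differ, and the test of that difference, given further on, called 0 of the 49. Microglia markers moved in the opposite direction: 3 of 10 were lower in CPEB1-KO-LPS than in CPEB1-KO and 6 of 10 were lower in WT-LPS than in WT. Among 6 monocyte markers, 1 was lower in CPEB1-KO-LPS than in CPEB1-KO, and 4 were higher in WT-LPS than in WT. Endothelial markers were higher for 4 of 7 and lower for 1 of 7 in WT-LPS, and 1 of 7 was lower in CPEB1-KO-LPS. Choroid plexus markers were lower for 4 of 5 in CPEB1-KO-LPS and for 5 of 5 in WT-LPS. In WT-LPS 4 of 5 border macrophage, 3 of 4 B cell, 1 of 5 T and NK cell and 4 of 4 erythroid markers were lower, and of these lists edgeR's quasi-likelihood test called 0 in knockout mice. Erythroid markers summed to 7051 to 61141 TPM in CPEB1-KO-LPS, against 27877 to 37849 TPM in CPEB1-KO, and to 6544 to 10887 TPM in WT-LPS, against 41663 to 66991 TPM in WT. Of 6 oligodendrocyte lineage markers 2 were lower, and of 6 astrocyte markers 1 was higher, in each genotype. The part of these cell types in the result was not tested. Leaving out single libraries moved the count in knockout mice to 7 without CPEB1-KO replicate 2, 7 without CPEB1-KO replicate 3 and 23 without CPEB1-KO replicate 1. With the libraries of the 2 groups alone it was 8. In wild-type mice it moved to 17 without WT replicate 3 and 17 without WT-LPS replicate 3.

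**Figure D2:**
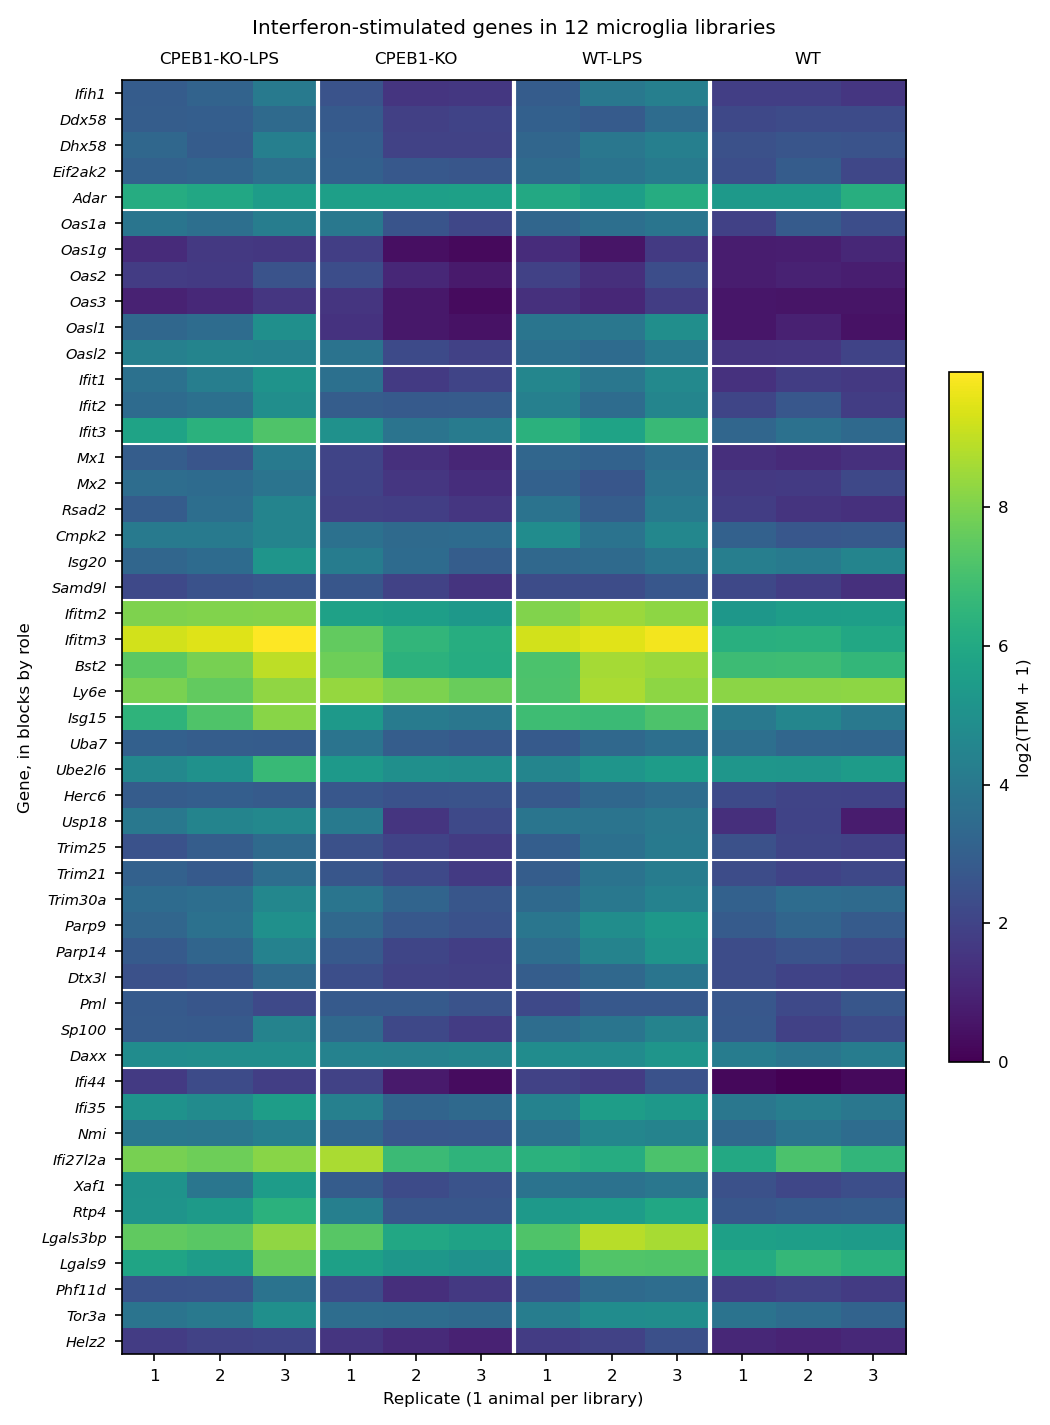
Expression of the 49 genes (rows, in blocks by role) in the 12 libraries (columns, by group and replicate), as log2(TPM + 1) from dark (0) to bright. The LPS columns are brighter than the untreated columns for most rows, and CPEB1-KO replicate 1 is brighter than CPEB1-KO replicates 2 and 3 in the OAS, IFIT and ISG15 blocks.

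**Figure D3:**
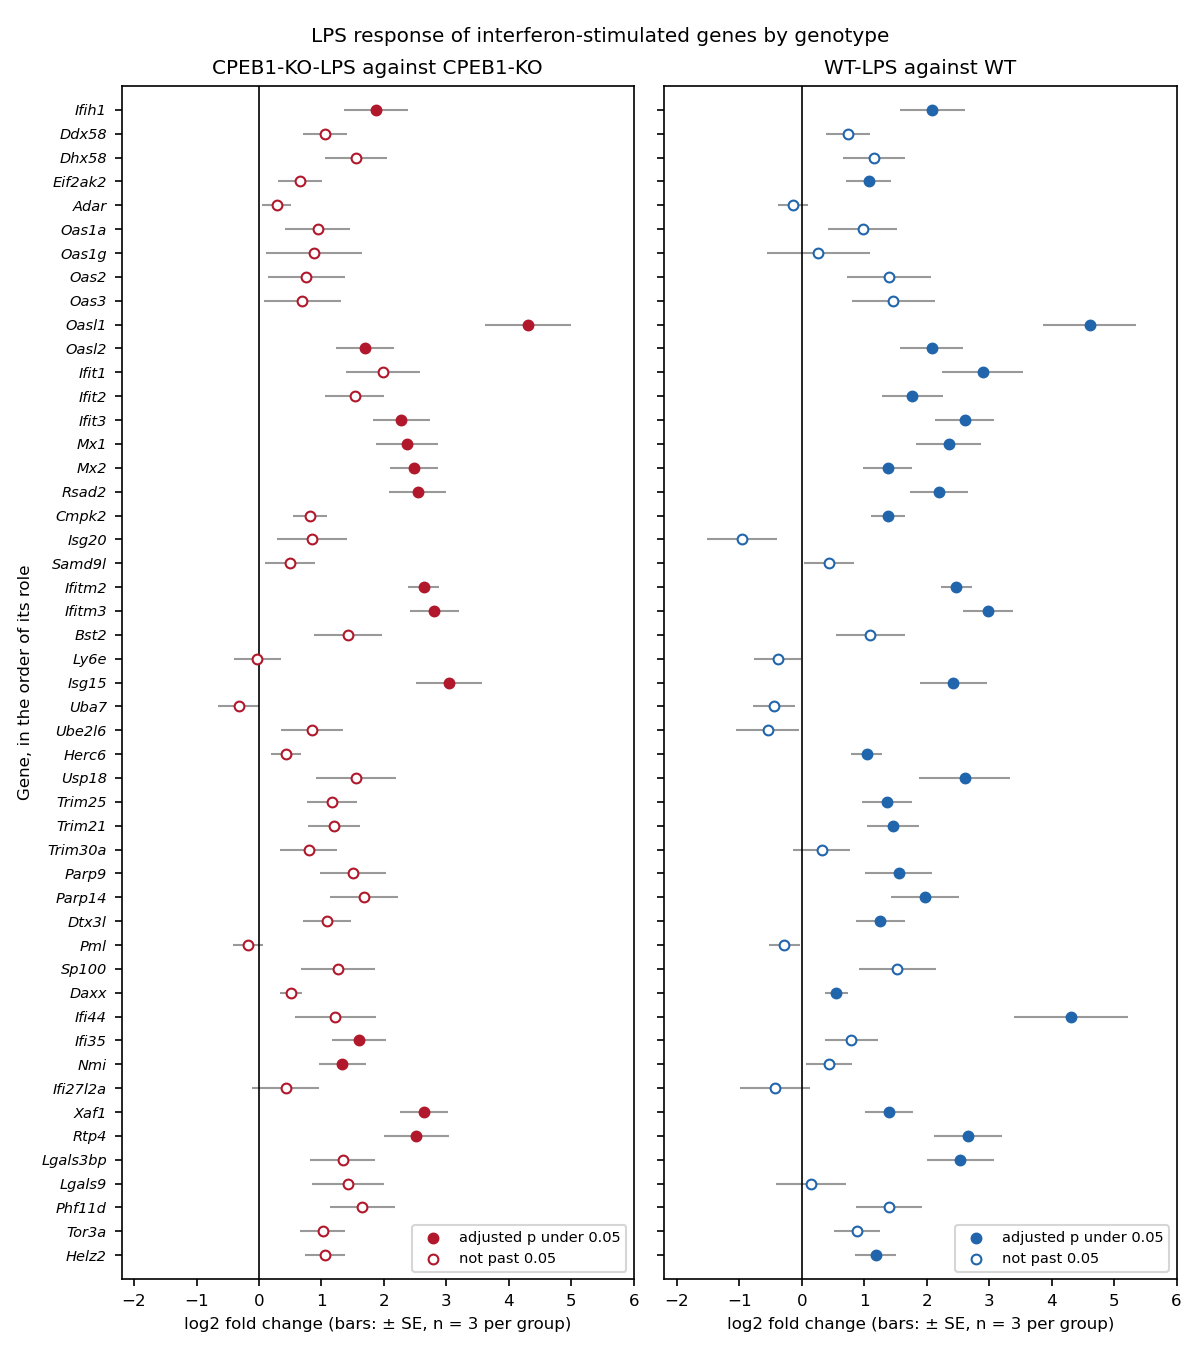
log2 fold change (points) ± SE (bars) of each gene after LPS, in knockout mice on the left and wild-type mice on the right, with n = 3 libraries per group. Filled points passed an adjusted p of 0.05 (14 on the left, 27 on the right), and all filled points lie to the right of 0.

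Of 5 genes whose proteins sense, bind or edit double-stranded RNA, 1 was higher in CPEB1-KO-LPS than in CPEB1-KO and 2 were higher in WT-LPS than in WT. Ifih1 encodes MDA5, the sensor of long double-stranded RNA. It had 6.53, 8.05 and 15.8 TPM in CPEB1-KO-LPS, against 4.84, 1.93 and 2.05 TPM in CPEB1-KO, a log2 fold change of 1.87 ± 0.51, adjusted p = 0.0466. It had 6.36, 14.7 and 18.4 TPM in WT-LPS, against 2.63, 2.63 and 1.96 TPM in WT, a log2 fold change of 2.09 ± 0.52, adjusted p = 0.0109. In both genotypes every LPS library lay above every untreated library. The call in knockout mice was lost without CPEB1-KO-LPS replicate 2 or 3, CPEB1-KO replicate 2 or 3, WT-LPS replicate 2 or 3 or WT replicate 1, 2 or 3 (highest adjusted p 0.196), and with RLE scaling (adjusted p = 0.0529) and with the libraries of the 2 groups alone (adjusted p = 0.0742). Eif2ak2 encodes PKR, the kinase that stops translation when it meets double-stranded RNA. It had 7.61, 8.34 and 11.5 TPM in CPEB1-KO-LPS, against 7.38, 5.6 and 5.27 TPM in CPEB1-KO, a log2 fold change of 0.65 ± 0.35, adjusted p = 0.318, which did not pass. It had 9.83, 12.8 and 16.2 TPM in WT-LPS, against 4.21, 6.45 and 3.34 TPM in WT, a log2 fold change of 1.07 ± 0.36, adjusted p = 0.0399, which passed. The groups did not overlap in either genotype, and the wild-type call was lost without CPEB1-KO replicate 2 or 3, WT-LPS replicate 2 or 3 or WT replicate 1 or 3 (highest adjusted p 0.136), and with the libraries of the 2 groups alone (adjusted p = 0.0588) and with a replicate block (adjusted p = 0.0549). Adar, the editor that turns adenosine into inosine in double-stranded RNA, had 70.4, 60.9 and 44.05 TPM in CPEB1-KO-LPS, against 48.1, 48.5 and 49.4 TPM in CPEB1-KO, a log2 fold change of 0.28 ± 0.24, adjusted p = 0.556. It had 62.7, 46.9 and 70.7 TPM in WT-LPS, against 40.9, 41.2 and 73.8 TPM in WT, a log2 fold change of -0.15 ± 0.24, adjusted p = 0.67. Its groups overlapped in both genotypes. Ddx58 (RIG-I, the sensor of short RNA with a triphosphate end) and Dhx58 (LGP2, a helicase that tunes both sensors) did not pass in either genotype. Their log2 fold changes were 1.06 and 1.55 in knockout mice, and 0.74 and 1.16 in wild-type mice.

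Oligoadenylate synthetases make the short adenylate chains that activate RNase L. Of the 6 family genes, the 2 OAS-like genes were higher after LPS in both genotypes and the 4 classical genes passed in neither. Oasl1, whose mouse protein lacks the synthetic activity and restrains translation of Irf7, had 8.98, 10.3 and 29.8 TPM in CPEB1-KO-LPS, against 1.77, 0.58 and 0.39 TPM in CPEB1-KO, a log2 fold change of 4.31 ± 0.68, adjusted p = 0.00213. It had 13.5, 14.2 and 29.2 TPM in WT-LPS, against 0.5, 0.9 and 0.41 TPM in WT, a log2 fold change of 4.61 ± 0.75, adjusted p = 0.00116. It was at 1.77 TPM or less in every untreated library, and all LPS libraries lay far above them. Oasl2, an active synthetase in mice, had 18.98, 21.5 and 20.4 TPM in CPEB1-KO-LPS, against 12.7, 3.65 and 2.75 TPM in CPEB1-KO, a log2 fold change of 1.70 ± 0.46, adjusted p = 0.0471. It had 11.6, 10.2 and 15.7 TPM in WT-LPS, against 1.93, 1.99 and 3.03 TPM in WT, a log2 fold change of 2.08 ± 0.50, adjusted p = 0.0089. The groups did not overlap, but CPEB1-KO replicate 1 stood nearer to the LPS libraries than to replicates 2 and 3. The Oasl2 call in knockout mice was lost without CPEB1-KO-LPS replicate 1, 2 or 3, CPEB1-KO replicate 2 or 3, WT-LPS replicate 1, 2 or 3 or WT replicate 1, 2 or 3 (highest adjusted p 0.196), and with RLE scaling (adjusted p = 0.0504) and with the libraries of the 2 groups alone (adjusted p = 0.0978). Oas1g had 1.32, 2.12 and 2.06 TPM in CPEB1-KO-LPS, against 2.64, 0.32 and 0.2 TPM in CPEB1-KO, a log2 fold change of 0.88 ± 0.77, adjusted p = 0.573. It had 1.43, 0.48 and 2.21 TPM in WT-LPS, against 0.75, 0.77 and 1.16 TPM in WT, a log2 fold change of 0.27 ± 0.83, adjusted p = 0.835. Its groups overlapped in both genotypes. Oas1a, Oas2 and Oas3 had log2 fold changes of 0.94, 0.76 and 0.70 in knockout mice, and of 0.97, 1.40 and 1.47 in wild-type mice. For these 3 genes every WT-LPS library still lay above every WT library. The expected counts of Oas1a and Oas1g were not whole in any of the 12 libraries, as happens where reads are divided between near copies, so how their reads were split is uncertain.

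IFIT proteins bind viral RNA, IFIT1 in particular RNA whose cap lacks host methylation. Of the 3 genes, 1 was higher in CPEB1-KO-LPS than in CPEB1-KO and 3 were higher in WT-LPS than in WT. Ifit3 had 53.2, 79.8 and 145 TPM in CPEB1-KO-LPS, against 31.5, 13.2 and 16.6 TPM in CPEB1-KO, a log2 fold change of 2.28 ± 0.46, adjusted p = 0.0102. It had 81.5, 53.5 and 107 TPM in WT-LPS, against 8.7, 11.98 and 9.51 TPM in WT, a log2 fold change of 2.61 ± 0.48, adjusted p = 0.00217. Its expected counts were not whole in any of the 12 libraries, so reads shared with near copies make its level uncertain. The Ifit3 call in knockout mice was lost without CPEB1-KO replicate 2 or 3 (highest adjusted p 0.0614). Ifit1 had 11.96, 18.1 and 33.9 TPM in CPEB1-KO-LPS, against 11.8, 2.26 and 3.09 TPM in CPEB1-KO, a log2 fold change of 1.99 ± 0.59, adjusted p = 0.0652, which did not pass. It had 22.4, 14.3 and 24.8 TPM in WT-LPS, against 1.69, 2.51 and 2.16 TPM in WT, a log2 fold change of 2.90 ± 0.65, adjusted p = 0.00605, which passed. CPEB1-KO replicate 1 was at almost the level of CPEB1-KO-LPS replicate 1, while every WT library was far below every WT-LPS library. Ifit2 had 10.04, 11.6 and 28.8 TPM in CPEB1-KO-LPS, against 6.57, 6.01 and 6.32 TPM in CPEB1-KO, a log2 fold change of 1.53 ± 0.47, adjusted p = 0.0738. It had 19.1, 10.4 and 21.8 TPM in WT-LPS, against 3.18, 5.49 and 2.5 TPM in WT, a log2 fold change of 1.77 ± 0.49, adjusted p = 0.0176. Its groups did not overlap in either genotype, and the wild-type call was lost without WT-LPS replicate 3 or WT replicate 1 or 3 (highest adjusted p 0.0723).

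Among 6 antiviral effectors, 3 were higher in CPEB1-KO-LPS than in CPEB1-KO and 4 were higher in WT-LPS than in WT. Rsad2 encodes viperin, which makes a nucleotide that ends viral RNA chains. It had 6.45, 11.1 and 21.7 TPM in CPEB1-KO-LPS, against 2.66, 2.61 and 2 TPM in CPEB1-KO, a log2 fold change of 2.54 ± 0.46, adjusted p = 0.00509. It had 12.8, 6.69 and 15.8 TPM in WT-LPS, against 2.49, 1.83 and 1.6 TPM in WT, a log2 fold change of 2.19 ± 0.47, adjusted p = 0.00474. The groups were separate in both genotypes. Cmpk2, the neighbouring gene, encodes a mitochondrial nucleotide kinase. It had 15.8, 16.3 and 21.3 TPM in CPEB1-KO-LPS, against 11.96, 9.7 and 10.1 TPM in CPEB1-KO, a log2 fold change of 0.81 ± 0.27, adjusted p = 0.0989, which did not pass. It had 27.7, 12.7 and 23.1 TPM in WT-LPS, against 7.53, 5.46 and 5.87 TPM in WT, a log2 fold change of 1.38 ± 0.28, adjusted p = 0.00367, which passed. Its groups were separate in both genotypes. Mx1 belongs to the GTPases that trap viral nucleoprotein, and common laboratory mouse strains carry defective Mx alleles. GENCODE M21 lists Mx1 and Mx2 as transcribed pseudogenes. Mx1 had 6.59, 5.21 and 15.96 TPM in CPEB1-KO-LPS, against 3.07, 1.62 and 1.08 TPM in CPEB1-KO, a log2 fold change of 2.37 ± 0.50, adjusted p = 0.0128. It had 8.65, 7.63 and 11.5 TPM in WT-LPS, against 1.5, 1.25 and 1.58 TPM in WT, a log2 fold change of 2.35 ± 0.53, adjusted p = 0.00607. No library of the untreated groups reached the LPS groups for Mx1, and its call in knockout mice was lost without CPEB1-KO replicate 2 or 3 (highest adjusted p 0.0769), and with the libraries of the 2 groups alone (adjusted p = 0.0582). Mx2 was called in both genotypes, at 2.48 in knockout mice and 1.38 in wild-type mice on the log2 scale, and its wild-type call was lost without WT-LPS replicate 3 or WT replicate 1 (highest adjusted p 0.092).

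Samd9l, a restriction factor of the SAMD9 family, passed in neither genotype. It had 3.54, 4.7 and 5.46 TPM in CPEB1-KO-LPS, against 5.36, 2.85 and 1.84 TPM in CPEB1-KO, a log2 fold change of 0.50 ± 0.40, adjusted p = 0.531. It had 3.93, 3.94 and 5.43 TPM in WT-LPS, against 3.41, 2.63 and 1.57 TPM in WT, a log2 fold change of 0.44 ± 0.41, adjusted p = 0.446. The knockout groups overlapped and the wild-type groups did not. Isg20, an exonuclease that degrades single-stranded RNA, is named here after its values were seen. Isg20 was lower in every WT-LPS library than in every WT library, a separation not counted over all tested genes. It had 9.33, 9.84 and 13.6 TPM in WT-LPS, against 17.96, 16 and 21.4 TPM in WT, a log2 fold change of -0.96 ± 0.56, adjusted p = 0.215, which did not pass. Without CPEB1-KO replicate 1 and CPEB1-KO-LPS replicate 3, a setting chosen after seeing the data, this difference passed as lower (-0.96, adjusted p = 0.0315). It had 8.77, 10.1 and 35.5 TPM in CPEB1-KO-LPS, against 16.9, 10.03 and 6.57 TPM in CPEB1-KO, a log2 fold change of 0.85 ± 0.55, adjusted p = 0.425. The positive estimate in knockout mice rested on CPEB1-KO-LPS replicate 3, without which it was -0.33.

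Of 4 membrane proteins that act on viral entry or release, the same 2 were higher after LPS in both genotypes. Ifitm2 and Ifitm3 encode neighbouring interferon-induced transmembrane proteins that block the fusion of virus and host membranes. Ifitm2 had 256, 263 and 271 TPM in CPEB1-KO-LPS, against 50.4, 46.1 and 38.1 TPM in CPEB1-KO, a log2 fold change of 2.63 ± 0.25, adjusted p = 7.01e-05. It had 264, 349.6 and 305 TPM in WT-LPS, against 37.8, 44.9 and 46.6 TPM in WT, a log2 fold change of 2.48 ± 0.25, adjusted p = 6.22e-05. It had the smallest adjusted p of the 49 genes in both genotypes. Ifitm3 had 609, 705 and 985 TPM in CPEB1-KO-LPS, against 188, 92.8 and 72.1 TPM in CPEB1-KO, a log2 fold change of 2.81 ± 0.39, adjusted p = 0.00084. It had 618, 727 and 873 TPM in WT-LPS, against 75.9, 79.3 and 61.5 TPM in WT, a log2 fold change of 2.98 ± 0.40, adjusted p = 0.000393. Every LPS library lay at least 3-fold above every untreated library of its genotype. Ly6e, a surface protein that impairs coronavirus fusion, was the most abundant of the 49 genes in WT and did not pass. It had 245, 188 and 309.9 TPM in CPEB1-KO-LPS, against 334, 255 and 201 TPM in CPEB1-KO, a log2 fold change of -0.03 ± 0.38, adjusted p = 0.979. It had 141, 409 and 308 TPM in WT-LPS, against 298, 297 and 301 TPM in WT, a log2 fold change of -0.39 ± 0.38, adjusted p = 0.464. WT-LPS replicate 1 was the lowest and WT-LPS replicate 2 the highest of all 12 libraries. Bst2 (tetherin), which holds budding virus on the cell, passed in neither genotype, at 1.43 ± 0.55, adjusted p = 0.153 (log2 fold change) in knockout mice and 1.10 ± 0.55, adjusted p = 0.149 in wild-type mice.

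ISG15 is a ubiquitin-like protein that is joined to other proteins by an activating enzyme (UBA7), a conjugating enzyme (UBE2L6) and, in mice, the ligase HERC6, and is removed by USP18. With Trim25 these make 6 genes, of which 1 was higher in CPEB1-KO-LPS than in CPEB1-KO. In WT-LPS 4 of the 6, Trim25 among them, were higher than in WT. Isg15 had 86.5, 148 and 292 TPM in CPEB1-KO-LPS, against 39.3, 16.6 and 14.5 TPM in CPEB1-KO, a log2 fold change of 3.04 ± 0.53, adjusted p = 0.00399. It had 116, 109 and 145 TPM in WT-LPS, against 15.4, 22.4 and 15.1 TPM in WT, a log2 fold change of 2.42 ± 0.53, adjusted p = 0.00568. The groups were separate in both genotypes, and CPEB1-KO replicate 1 was the highest untreated library. Usp18, which also shields the IFNAR2 chain and so ends the signal, had 14.8, 21.6 and 23.7 TPM in CPEB1-KO-LPS, against 15.7, 1.9 and 3.62 TPM in CPEB1-KO, a log2 fold change of 1.55 ± 0.64, adjusted p = 0.183, which did not pass. It had 13.5, 13.1 and 15.1 TPM in WT-LPS, against 1.53, 3.01 and 0.68 TPM in WT, a log2 fold change of 2.61 ± 0.73, adjusted p = 0.0188, which passed. CPEB1-KO replicate 1 lay within the range of CPEB1-KO-LPS, whereas WT and WT-LPS were separate. The wild-type call was lost without WT replicate 1 or 3 (highest adjusted p 0.0747). Herc6 had 6.43, 6.85 and 6.26 TPM in CPEB1-KO-LPS, against 5.45, 4.65 and 4.79 TPM in CPEB1-KO, a log2 fold change of 0.43 ± 0.24, adjusted p = 0.349. It had 5.95, 9.03 and 10.7 TPM in WT-LPS, against 3.66, 3.13 and 2.96 TPM in WT, a log2 fold change of 1.04 ± 0.25, adjusted p = 0.00864. The knockout difference did not pass although its groups were separate.

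The 2 enzymes upstream of the ligase passed in neither genotype. Ube2l6 had 24.1, 31.9 and 103 TPM in CPEB1-KO-LPS, against 39.9, 30.2 and 28.2 TPM in CPEB1-KO, a log2 fold change of 0.85 ± 0.50, adjusted p = 0.375. It had 22.3, 35.1 and 44.7 TPM in WT-LPS, against 36.6, 35.9 and 43.4 TPM in WT, a log2 fold change of -0.54 ± 0.50, adjusted p = 0.443. The groups overlapped in both genotypes, with CPEB1-KO-LPS replicate 3 far above the other 11 libraries. Uba7 had log2 fold changes of -0.33 in knockout mice and -0.44 in wild-type mice, neither of which passed. Trim25, a ubiquitin ligase that acts on RIG-I, had log2 fold changes of 1.16 ± 0.40, adjusted p = 0.109 in knockout mice and 1.37 ± 0.40, adjusted p = 0.0238 in wild-type mice. The wild-type call was lost without WT-LPS replicate 2 or 3 or WT replicate 3 (highest adjusted p 0.0908).

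Of the other TRIM genes and the PARP9 and DTX3L group, 0 of 5 were higher in CPEB1-KO-LPS than in CPEB1-KO by edgeR's quasi-likelihood test and 4 of 5 were higher in WT-LPS than in WT. At an unadjusted p under 0.05, 4 of 5 were above the untreated group in each genotype, and DESeq2 called 2 in knockout mice and 4 in wild-type mice. All 5 estimates were positive in both genotypes. Parp14 encodes an ADP-ribosyltransferase. It had 6.03, 8.39 and 20.4 TPM in CPEB1-KO-LPS, against 5.83, 3.27 and 2.61 TPM in CPEB1-KO, a log2 fold change of 1.68 ± 0.54, adjusted p = 0.0854. It had 10.7, 20.8 and 34.1 TPM in WT-LPS, against 3.93, 4.91 and 3.96 TPM in WT, a log2 fold change of 1.97 ± 0.54, adjusted p = 0.0178. The groups were separate in both genotypes, narrowly so in knockout mice. The wild-type call was lost without WT-LPS replicate 3 or WT replicate 1 or 3 (highest adjusted p 0.0756). Trim21 encodes a receptor that binds antibody on incoming virus inside the cell. It had 7.45, 6.11 and 10.8 TPM in CPEB1-KO-LPS, against 5.26, 3.55 and 2.27 TPM in CPEB1-KO, a log2 fold change of 1.20 ± 0.41, adjusted p = 0.108. It had 6.62, 12.8 and 17.2 TPM in WT-LPS, against 3.96, 3.02 and 3.45 TPM in WT, a log2 fold change of 1.46 ± 0.42, adjusted p = 0.0214. The groups were again separate, and the wild-type call was lost without WT-LPS replicate 2 or 3 or WT replicate 3 (highest adjusted p 0.0841). Trim30a, which restrains Toll-like receptor signalling in mice, had 10.03, 11.1 and 23.3 TPM in CPEB1-KO-LPS, against 13.6, 8.33 and 5.26 TPM in CPEB1-KO, a log2 fold change of 0.80 ± 0.45, adjusted p = 0.354. It had 9.67, 15.01 and 20.4 TPM in WT-LPS, against 7.46, 10.4 and 9.87 TPM in WT, a log2 fold change of 0.32 ± 0.46, adjusted p = 0.629. Its groups overlapped in both genotypes.

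Parp9 and Dtx3l encode partners in 1 complex and overlap on chromosome 16, so reads from the shared stretch were divided between them and their counts were not whole in 8 libraries each. In knockout mice the log2 fold change of Parp9 was 1.51 ± 0.53, adjusted p = 0.121, and that of Dtx3l was 1.09 ± 0.39, adjusted p = 0.12. In wild-type mice Parp9 reached 1.55 ± 0.54, adjusted p = 0.0463, and Dtx3l 1.25 ± 0.39, adjusted p = 0.0305. The Parp9 call was lost without CPEB1-KO replicate 2 or 3, WT-LPS replicate 2 or 3 or WT replicate 1, 2 or 3 (highest adjusted p 0.146), and with a replicate block (adjusted p = 0.0641). The Dtx3l call was lost without WT-LPS replicate 2 or 3 or WT replicate 1, 2 or 3 (highest adjusted p 0.113).

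Among 3 genes of the nuclear bodies that silence viral genomes, 0 passed in knockout mice by edgeR's quasi-likelihood test and 1 passed in wild-type mice. DESeq2 called 0 in knockout mice and 2 in wild-type mice, and at an unadjusted p under 0.05 there were 1 and 2. Daxx, a histone chaperone, had 27.8, 28.04 and 28.7 TPM in CPEB1-KO-LPS, against 20.3, 19.4 and 21.6 TPM in CPEB1-KO, a log2 fold change of 0.51 ± 0.18, adjusted p = 0.117. It had 27.5, 26.6 and 35.3 TPM in WT-LPS, against 17.1, 13.5 and 17.1 TPM in WT, a log2 fold change of 0.55 ± 0.18, adjusted p = 0.0374. The groups were separate in both genotypes but the change was the smallest of the called genes, and the wild-type call was lost without CPEB1-KO replicate 1, 2 or 3, WT-LPS replicate 2 or 3 or WT replicate 1, 2 or 3 (highest adjusted p 0.117), and with the libraries of the 2 groups alone (adjusted p = 0.131) and with a replicate block (adjusted p = 0.05001). Sp100 had 6.29, 6.02 and 21.04 TPM in CPEB1-KO-LPS, against 9.16, 3.46 and 2.43 TPM in CPEB1-KO, a log2 fold change of 1.27 ± 0.59, adjusted p = 0.249. It had 10.6, 13.5 and 21.1 TPM in WT-LPS, against 5.76, 2.77 and 3.79 TPM in WT, a log2 fold change of 1.53 ± 0.61, adjusted p = 0.0771. CPEB1-KO replicate 1 lay within the range of CPEB1-KO-LPS, and the wild-type groups were separate. Pml, the scaffold of these bodies, had 6.08, 5.33 and 3.58 TPM in CPEB1-KO-LPS, against 6.05, 6.04 and 4.9 TPM in CPEB1-KO, a log2 fold change of -0.18 ± 0.24, adjusted p = 0.74. It had 3.57, 5.67 and 5.62 TPM in WT-LPS, against 5.42, 3.64 and 5.36 TPM in WT, a log2 fold change of -0.28 ± 0.25, adjusted p = 0.42. Its groups overlapped.

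Of the 11 other induced genes, 4 were higher in CPEB1-KO-LPS than in CPEB1-KO and 5 were higher in WT-LPS than in WT. Rtp4, a transporter of receptors to the cell surface, had 34.2, 41.4 and 81.3 TPM in CPEB1-KO-LPS, against 18.5, 5.38 and 5.37 TPM in CPEB1-KO, a log2 fold change of 2.52 ± 0.52, adjusted p = 0.0114. It had 39.4, 44.7 and 60.4 TPM in WT-LPS, against 5.27, 6.01 and 6.46 TPM in WT, a log2 fold change of 2.66 ± 0.54, adjusted p = 0.00371. The groups were separate, and the call in knockout mice was lost without CPEB1-KO replicate 2 or 3 (highest adjusted p 0.063), and with the libraries of the 2 groups alone (adjusted p = 0.0515). Ifi44, an interferon-induced cytoplasmic protein, had 2.26, 3.86 and 2.59 TPM in CPEB1-KO-LPS, against 2.9, 0.63 and 0.27 TPM in CPEB1-KO, a log2 fold change of 1.22 ± 0.65, adjusted p = 0.316, which did not pass. It had 2.91, 2.38 and 4.67 TPM in WT-LPS, against 0.17, 0 and 0.19 TPM in WT, a log2 fold change of 4.31 ± 0.91, adjusted p = 0.00463, which passed. It was at or near 0 in WT and in CPEB1-KO replicate 3, and CPEB1-KO replicate 1 lay among the LPS libraries. Lgals9, the sugar-binding protein galectin-9, had 55.01, 43.6 and 191 TPM in CPEB1-KO-LPS, against 49.5, 37.9 and 32.5 TPM in CPEB1-KO, a log2 fold change of 1.42 ± 0.57, adjusted p = 0.175. It had 56.4, 149 and 146 TPM in WT-LPS, against 66.6, 97.8 and 80.5 TPM in WT, a log2 fold change of 0.14 ± 0.56, adjusted p = 0.872. It overlapped in both genotypes, with CPEB1-KO-LPS replicate 3 far above replicates 1 and 2 and WT-LPS replicate 1 far below replicates 2 and 3.

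Xaf1, an antagonist of the apoptosis inhibitor XIAP, was higher in both genotypes, at 2.65 in knockout mice and 1.39 in wild-type mice on the log2 scale. Its wild-type call was lost without WT replicate 3 (highest adjusted p 0.0539). Ifi35 and Nmi, whose proteins bind each other, were the 2 genes that passed in knockout mice alone. Ifi35 had a log2 fold change of 1.60 ± 0.43, adjusted p = 0.0431 in knockout mice and of 0.79 ± 0.43, adjusted p = 0.179 in wild-type mice. Nmi had a log2 fold change of 1.34 ± 0.37, adjusted p = 0.0494 in knockout mice and of 0.43 ± 0.37, adjusted p = 0.397 in wild-type mice. The Ifi35 call was lost without CPEB1-KO-LPS replicate 1, 2 or 3, CPEB1-KO replicate 2 or 3, WT-LPS replicate 3 or WT replicate 3 (highest adjusted p 0.189), and with the libraries of the 2 groups alone (adjusted p = 0.0601). The Nmi call was lost without CPEB1-KO-LPS replicate 1, 2 or 3, CPEB1-KO replicate 2 or 3, WT-LPS replicate 2 or 3 or WT replicate 3 (highest adjusted p 0.212), and with RLE scaling (adjusted p = 0.0574) and with the libraries of the 2 groups alone (adjusted p = 0.0553). Lgals3bp, a secreted glycoprotein that binds galectins, and Helz2, a helicase, passed in wild-type mice, at 2.54 and 1.18 on the log2 scale, and were at 1.34 and 1.06 in knockout mice. The Helz2 call was lost without WT-LPS replicate 3 (highest adjusted p 0.0767). Ifi27l2a, Phf11d and Tor3a passed in neither genotype. Their log2 fold changes were 0.43, 1.65 and 1.02 in knockout mice and -0.43, 1.39 and 0.88 in wild-type mice. Reads of Phf11d and of Trim30a were also divided between genes, in 4 and in 11 libraries, so their levels are uncertain.

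**Figure D4:**
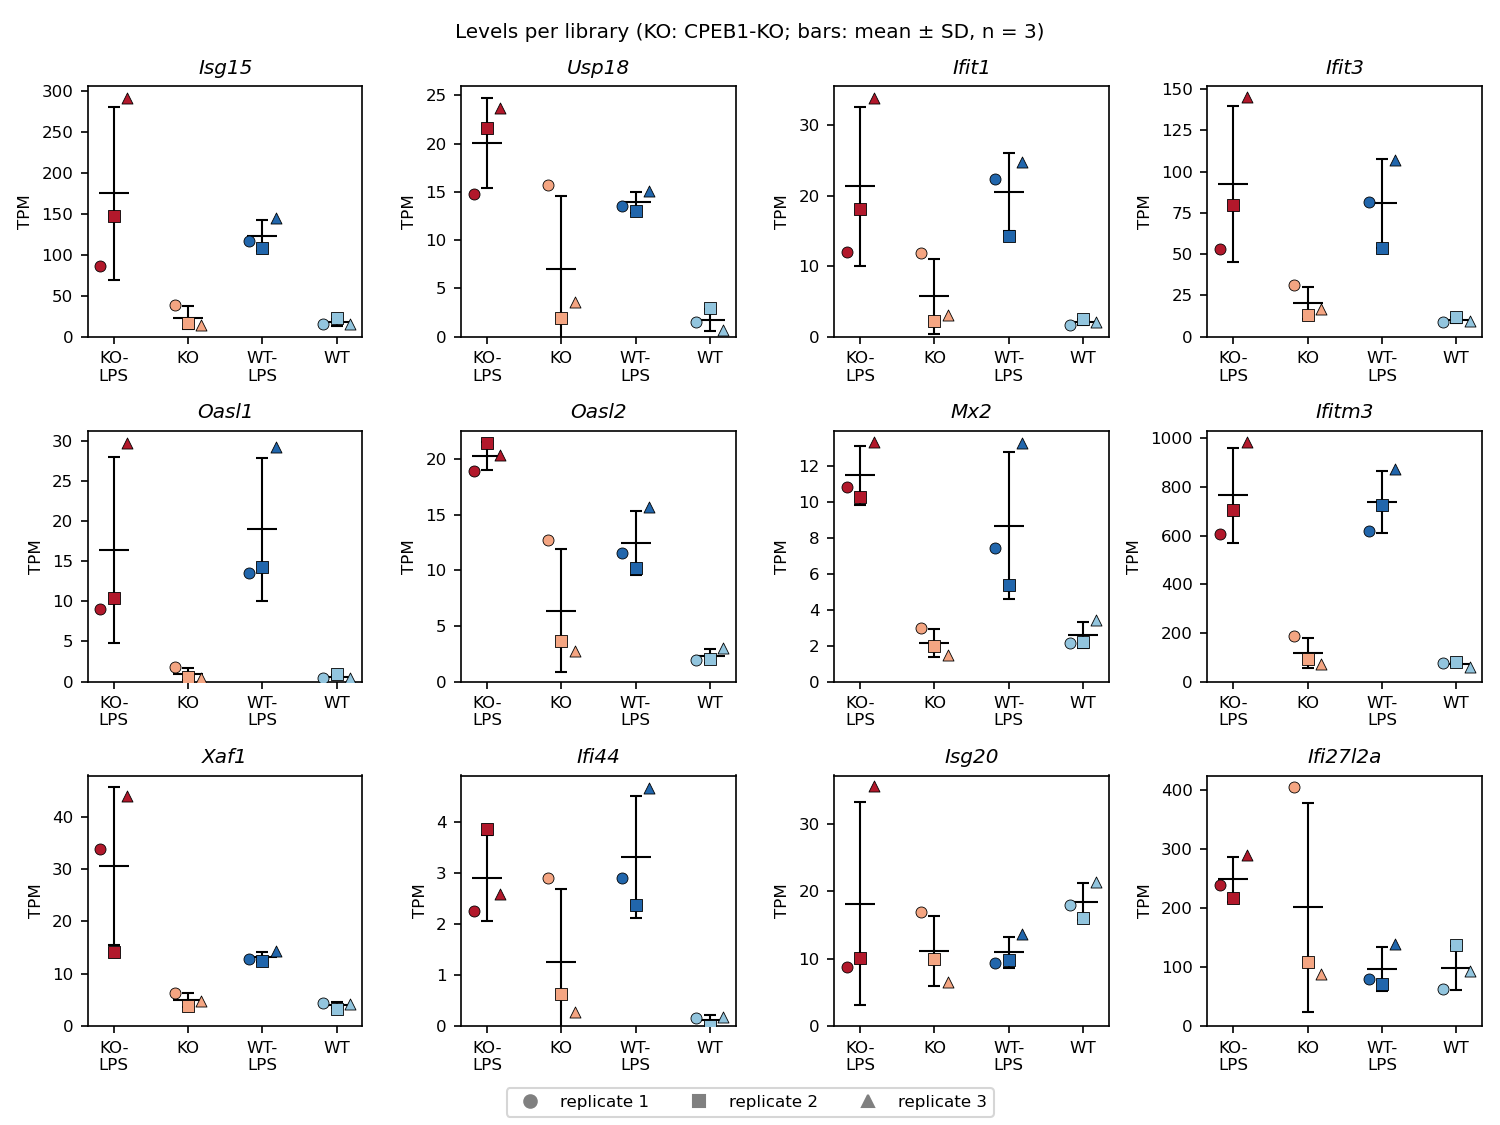
TPM of 12 of the genes in each library, by group (KO: CPEB1-KO), with the symbol giving the replicate and bars giving the mean ± SD of 3 libraries. Isg15, Ifit3, Oasl1, Oasl2, Mx2, Ifitm3 and Xaf1 separate LPS from untreated libraries in both genotypes, while CPEB1-KO replicate 1 (circle) stands above CPEB1-KO replicates 2 and 3 for Usp18, Ifit1, Oasl2, Ifi44 and Ifi27l2a. The panel of Isg20 shows WT above WT-LPS.

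Some of the 49 genes are neighbours. With neighbours defined as members less than 200000 bases apart in the GRCm38 annotation of GENCODE M21, 18 of the 49 genes fell into 7 loci. Oasl2 and Oasl1 (chr5:114896926-114937911), Ifitm2 and Ifitm3 (chr7:140954837-141010744) and Mx1 and Mx2 (chr16:97447035-97560901) were called in both genotypes. Oas2, Oas3, Oas1g and Oas1a (chr5:120730333-120907544) were called in neither, although this locus lies on the same chromosome as the OAS-like pair. Rsad2 and Cmpk2 (chr12:26442743-26479837) gave 1 call in knockout mice and 2 in wild-type mice. Ifit2, Ifit3 and Ifit1 (chr19:34550550-34650009) gave 1 call in knockout mice and 3 in wild-type mice. Parp14, Dtx3l and Parp9 (chr16:35831892-35972621) were called in wild-type mice alone.

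Levels before LPS differed widely between the genes. On the TPM scale, which is per transcript length, 33 of 49 genes averaged under 10 TPM in WT and 2 averaged over 100 TPM, whereas in WT-LPS 14 averaged under 10 TPM and 7 over 100 TPM. The highest in WT were Ly6e at 299 ± 2.12 TPM (SD, n = 3), Bst2 at 107 ± 10.5 TPM, Ifi27l2a at 98.2 ± 37.1 TPM and Lgals9 at 81.7 ± 15.6 TPM. Bst2, Ifi27l2a and Lgals9 did not differ beyond their spread. In WT-LPS the order changed, and Ifitm3 led at 739 ± 128 TPM. Lgals3bp at 338 ± 170 TPM, Ifitm2 at 306 ± 42.7 TPM, Bst2 at 292 ± 135 TPM and Ly6e at 286 ± 136 TPM followed. These followers did not differ beyond their spread. In WT, Ifitm3, Lgals3bp and Ifitm2 stood at 72.2 ± 9.46, 46.0 ± 3.34 and 43.1 ± 4.67 TPM.

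CPEB1-KO replicate 1 stood apart from the rest of its group for these genes. With at least 2-fold over both other libraries as the measure (on TPM + 0.5), it did so for 18 of 49 genes (36.7%), against 1.26% of all tested genes. These 18 include all 6 OAS family genes, Ifih1, Dhx58, Ifit1, Ifitm3, Bst2, Isg15, Usp18, Sp100, Ifi44, Ifi27l2a, Rtp4 and Lgals3bp. Usp18 was at 15.7 TPM in it, against 1.90 and 3.62 TPM in CPEB1-KO replicates 2 and 3, and Ifi27l2a, the gene of a small mitochondrial protein, was at 405 TPM, against 109 and 88.6 TPM. It was the highest CPEB1-KO library for 47 of 49 genes, a count that was not made over all tested genes. Summed B cell markers were 50.5 TPM in it, against 10.5 and 7.41 TPM in CPEB1-KO replicates 2 and 3. T and NK cell markers summed to 27.0 TPM, against 10.6 and 8.83 TPM. Plasmacytoid dendritic cell markers summed to 63.7 TPM, against 35.8 and 23.1 TPM. None of the detected markers of these 3 lists was at 0 in all CPEB1-KO libraries. In WT replicate 1 these 3 lists summed to 43.4, 20 and 45.6 TPM, and its mean log2(TPM + 1) over the 49 genes was 2.99. CPEB1-KO replicate 1 was also the highest of its group for microglia (4388 TPM), erythroid (37849 TPM) and choroid plexus markers (9142 TPM). It was the lowest for neuron (4197 TPM), astrocyte (495 TPM), oligodendrocyte lineage (2755 TPM) and endothelial markers (45.8 TPM). The part of these cell types in the result was not tested.

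Without CPEB1-KO replicate 1, the genes higher in CPEB1-KO-LPS than in CPEB1-KO numbered 23, made up of all 14 called with it and Ddx58, Dhx58, Oas1a, Oas1g, Ifit1, Usp18, Ifi44, Lgals3bp and Helz2. Over all tested genes the calls numbered 607 without it and 952 with it. On the log2 scale Usp18 was then at 2.96 ± 0.54 (adjusted p = 0.0083) and Ifit1 at 3.14 ± 0.53 (adjusted p = 0.00524).

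CPEB1-KO-LPS replicate 3 stood apart in the same way for 13 of 49 genes (26.5%), against 2.89% of all tested genes. These were Dhx58, Oasl1, Ifit2, Mx1, Isg20, Bst2, Ube2l6, Trim30a, Parp9, Parp14, Sp100, Lgals9 and Phf11d. Ube2l6 was at 103 TPM in it, against 24.1 and 31.9 TPM in CPEB1-KO-LPS replicates 1 and 2, and Lgals9 was at 191 TPM, against 55.0 and 43.6 TPM. Its microglia markers summed to 2817 TPM, against 1190 and 730 TPM in replicates 1 and 2, its erythroid markers to 61141 TPM, against 7051 and 11850 TPM, and its neuron markers to 2937 TPM, against 4636 and 5007 TPM. The part of these cell types in the result was not tested. WT-LPS replicate 1 was the lowest WT-LPS library for 30 of 49 genes, a count that was not made over all tested genes. It was at least 2-fold below both others for 5 of 49 (Ifih1, Bst2, Ly6e, Lgals3bp and Lgals9), against 4.33% of all tested genes. Its microglia markers summed to 1353 TPM, against 4448 and 3497 TPM in WT-LPS replicates 2 and 3, and its neuron markers to 6552 TPM, against 2323 and 2719 TPM.

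**Figure D5:**
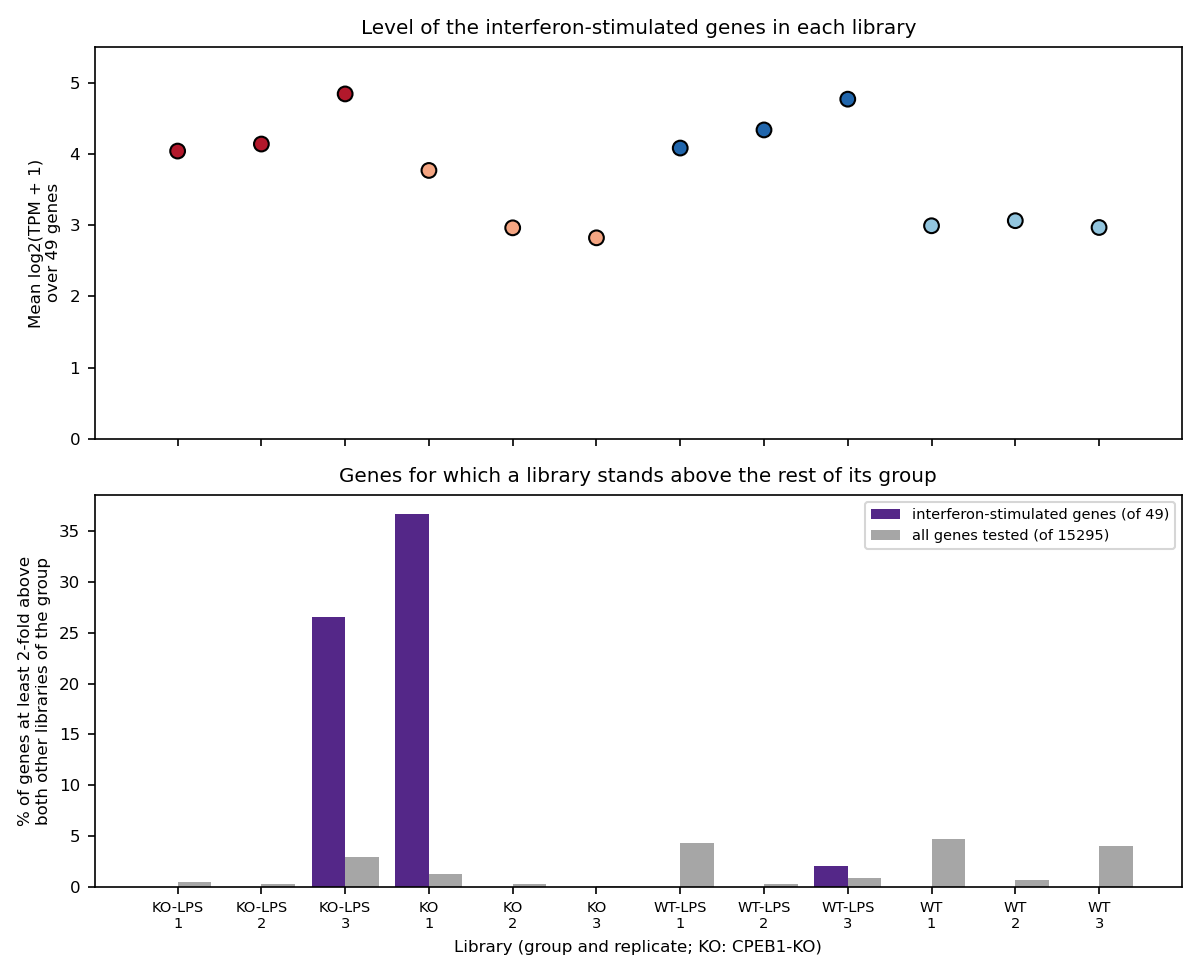
Top, mean log2(TPM + 1) over the 49 genes in each library (KO: CPEB1-KO). Bottom, percent of the 49 genes (purple) and of 15295 tested genes (grey) for which a library is at least 2-fold above both other libraries of its group; CPEB1-KO replicate 1 reaches 36.7% and CPEB1-KO-LPS replicate 3 reaches 26.5% of the 49 genes.

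Averaged over the 49 genes on the log2(TPM + 1) scale, the libraries stood at 4.04, 4.14 and 4.84 in CPEB1-KO-LPS, 3.77, 2.96 and 2.82 in CPEB1-KO, 4.08, 4.34 and 4.77 in WT-LPS, and 2.99, 3.06 and 2.97 in WT. Every LPS library was above every untreated library, and the untreated library nearest to them was CPEB1-KO replicate 1.

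No interferon-stimulated gene passed between the genotypes. In CPEB1-KO against WT, edgeR's quasi-likelihood test called 0 of 49, where it called 0.0327% of all tested genes. DESeq2 called 1 of 49 (Ifi44, at 3.04 on the log2 scale, adjusted p = 0.0442), where it called 3.27% of all genes, and 5 of 49 had an unadjusted p under 0.05, where 18.6% of all tested genes did. Both are smaller shares than over all genes, so the 5 genes below are given as a description. Ifi44 had 2.9, 0.63 and 0.27 TPM in CPEB1-KO, against 0.17, 0 and 0.19 TPM in WT, a log2 fold change of 2.98 ± 0.96, unadjusted p = 0.00796, adjusted p = 0.182. In TPM, every CPEB1-KO library lay above every WT library, and how often that occurs over all tested genes was not counted. Without CPEB1-KO replicate 1 the log2 fold change was 1.49 (adjusted p = 0.311). Ifi44 had few expected counts here, 49, 14 and 5 in CPEB1-KO and 3, 0 and 2 in WT. It did not pass the filter with the libraries of these 2 groups alone, so its place in this test rested on the LPS libraries. Usp18 had 15.7, 1.9 and 3.62 TPM in CPEB1-KO, against 1.53, 3.01 and 0.68 TPM in WT, a log2 fold change of 1.68 ± 0.73, unadjusted p = 0.0388, adjusted p = 0.247, which was 0.27 without CPEB1-KO replicate 1. Oasl2 had 12.7, 3.65 and 2.75 TPM in CPEB1-KO, against 1.93, 1.99 and 3.03 TPM in WT, a log2 fold change of 1.17 ± 0.50, unadjusted p = 0.0348, adjusted p = 0.24, which was 0.13 without CPEB1-KO replicate 1. Both estimates thus rested on that library.

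Nmi and Lgals9 had the opposite sign. Nmi had 9.1, 5.5 and 5.6 TPM in CPEB1-KO, against 9.32, 13.03 and 10.4 TPM in WT, a log2 fold change of -1.05 ± 0.38, unadjusted p = 0.0152, adjusted p = 0.197. Lgals9 had 49.5, 37.9 and 32.5 TPM in CPEB1-KO, against 66.6, 97.8 and 80.5 TPM in WT, a log2 fold change of -1.39 ± 0.57, unadjusted p = 0.0304, adjusted p = 0.231. In TPM, all CPEB1-KO libraries lay below all WT libraries for both genes, and how often that occurs over all tested genes was not counted. The median log2 fold change of all tested genes there was 0.26 on log2(TPM + 1), compared with -0.03 on counts. Without WT replicate 1 and WT-LPS replicate 1, a setting chosen after seeing the data, Nmi (-1.30, adjusted p = 0.0432) and Adar (-0.68, adjusted p = 0.0488) passed, while the calls over all tested genes grew to 2349, compared with 5 in all libraries. Without WT replicate 1 alone there were 1292 calls over all genes and 0 among the 49. Microglia markers summed to 3116 to 4388 TPM in CPEB1-KO, against 6061 to 7278 TPM in WT, and the part of this in the result was not tested. The median over the 49 genes was -0.03, beside -0.03 over all tested genes. Positive estimates numbered 23 of 49, against 47.5% of all tested genes.

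In CPEB1-KO-LPS against WT-LPS the test called 0 of 49, where it called 0.00654% of all tested genes. DESeq2 also called 0, where it called 0.589% of all genes. An unadjusted p under 0.05 was reached by 2 of 49, a smaller share than the 10.8% of all tested genes. Xaf1 had 33.8, 14.1 and 43.9 TPM in CPEB1-KO-LPS, against 12.8, 12.6 and 14.4 TPM in WT-LPS, a log2 fold change of 1.27 ± 0.36, unadjusted p = 0.00399, adjusted p = 0.379. CPEB1-KO-LPS replicate 2 lay within the range of WT-LPS, and without CPEB1-KO-LPS replicate 3 the log2 fold change was 0.75. Ifi27l2a had 239.8, 216 and 289.6 TPM in CPEB1-KO-LPS, against 80.4, 70.8 and 139.7 TPM in WT-LPS, a log2 fold change of 1.52 ± 0.55, unadjusted p = 0.0156, adjusted p = 0.422. In TPM, every CPEB1-KO-LPS library lay above every WT-LPS library, and how often that occurs over all tested genes was not counted. The median over the 49 genes was 0.02, beside 0.06 over all tested genes. Positive estimates numbered 26 of 49, against 55.6% of all tested genes. The 4 comparisons share groups, so CPEB1-KO enters both its own LPS comparison and the one with WT, and the same holds for the other groups.

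The difference of the LPS response, CPEB1-KO minus WT, was called for 0 of 49 genes, where 0.00654% of all tested genes were called. Without WT replicate 1 the calls over all genes numbered 441, compared with 1 in all libraries, and 0 were among the 49. DESeq2 called 0, where it called 2.01% of all genes. An unadjusted p under 0.05 was reached by 3 of 49, a smaller share than the 15.5% of all tested genes. These were Ifi44 (-3.08 ± 1.16, unadjusted p = 0.0189, adjusted p = 0.248), Xaf1 (1.25 ± 0.53, unadjusted p = 0.0352, adjusted p = 0.29) and Isg20 (1.81 ± 0.79, unadjusted p = 0.0384, adjusted p = 0.299), given as the difference of log2 fold changes ± SE. Without CPEB1-KO replicate 1 the difference for Ifi44 was -1.60, and without CPEB1-KO-LPS replicate 3 that for Xaf1 was 0.74 and that for Isg20 0.62. Estimates over the 49 genes ran from -3.08 to 1.81 with a median of -0.03, and 24 were positive, against 53.0% of all tested genes. With 3 libraries per group, a difference that did not pass is not shown to be absent.

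Of 40 other genes of the interferon pathway, 30 passed the filter. In CPEB1-KO-LPS against CPEB1-KO 5 were higher and 0 lower, and in WT-LPS against WT 8 were higher and 3 lower, beside the shares of all tested genes given above (4.10% higher and 2.12% lower in knockout mice, 12.4% and 14.9% in wild-type mice). DESeq2 called 6 higher and 0 lower in knockout mice, and 9 higher and 3 lower in wild-type mice, and at an unadjusted p under 0.05 there were 9 above and 0 below the untreated group in knockout mice, and 10 above and 4 below it in wild-type mice. None of the 10 interferon genes passed the filter. Ifnb1, which encodes interferon-β, had 1, 1 and 23 counts in CPEB1-KO-LPS and 0 in every CPEB1-KO library, and 1, 0 and 7 counts in WT-LPS and 0 in every WT library. The 23 and the 7 counts came from CPEB1-KO-LPS replicate 3 and WT-LPS replicate 3, the libraries of their groups with the highest mean of the 49 genes. Ifng, the gene of interferon-γ, had 2, 12 and 2 counts in CPEB1-KO-LPS against 5, 0 and 3 in CPEB1-KO, and 18, 4 and 18 counts in WT-LPS against 4, 2 and 2 in WT. Ifna1 had 1 count in a CPEB1-KO library, and Ifna2, Ifna4, Ifna5, Ifnk, Ifne, Ifnl2 and Ifnl3 had 0 in all 12 libraries. At these counts the filter left the interferon genes out of the main fit, so a change of their transcripts was not tested there.

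None of the 6 receptor chains was called in either genotype by edgeR's quasi-likelihood test, with 1 of 6 at an unadjusted p under 0.05 in knockout mice and 0 of 6 in wild-type mice, and DESeq2 called 0 in both. Ifnar1 had log2 fold changes of 0.19 in knockout mice and 0.29 in wild-type mice, and Ifnar2 of 0.51 in knockout mice and 0.11 in wild-type mice. Of the 5 kinases, Ikbke, the gene of IKKε, was higher in both genotypes. It had 19.6, 22.4 and 11.8 TPM in CPEB1-KO-LPS, against 1.28, 0.81 and 0.44 TPM in CPEB1-KO, a log2 fold change of 4.42 ± 0.36, adjusted p = 2.02e-05. It had 24.3, 25.6 and 21.7 TPM in WT-LPS, against 1.26, 1.22 and 1.83 TPM in WT, a log2 fold change of 3.73 ± 0.35, adjusted p = 4.41e-05. No LPS library came near an untreated one. Tbk1, the partner kinase, was higher in wild-type mice (1.03 ± 0.22, adjusted p = 0.00462) and did not pass in knockout mice (0.76 ± 0.22, adjusted p = 0.0532), both as log2 fold changes.

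Among the transcription factors, Irf1 and Irf7 were higher after LPS in both genotypes, Stat2 was higher in CPEB1-KO-LPS than in CPEB1-KO, and Irf3 was lower in WT-LPS than in WT. Irf7, the interferon-induced factor that amplifies interferon-α genes, had 50.5, 60.5 and 104 TPM in CPEB1-KO-LPS, against 25.2, 4.45 and 5.69 TPM in CPEB1-KO, a log2 fold change of 2.67 ± 0.60, adjusted p = 0.0182. It had 67.6, 55.3 and 109 TPM in WT-LPS, against 7.22, 6.72 and 3.7 TPM in WT, a log2 fold change of 3.31 ± 0.63, adjusted p = 0.00276. CPEB1-KO replicate 1 was the highest untreated library, as for the interferon-stimulated genes. The Irf7 call in knockout mice was lost without CPEB1-KO-LPS replicate 3 or CPEB1-KO replicate 2 or 3 (highest adjusted p 0.0868), and with the libraries of the 2 groups alone (adjusted p = 0.0601). Irf1, a factor induced by interferon-γ and by NF-κB, was at 2.27 in knockout mice and 2.11 in wild-type mice. Its call in knockout mice was lost without CPEB1-KO replicate 2 or 3 (highest adjusted p 0.0697). Stat2 was at 1.38 in knockout mice and 0.20 in wild-type mice, and its call in knockout mice was lost without CPEB1-KO-LPS replicate 1, 2 or 3 or CPEB1-KO replicate 2 or 3 (highest adjusted p 0.157). Irf9 was at 1.02 in knockout mice and 0.09 in wild-type mice and was not called. Irf3, the factor that starts interferon-β transcription, was at -0.42 in knockout mice and -1.52 in wild-type mice, of which the second passed.

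Among 5 adaptors and DNA sensors, Mavs, the mitochondrial adaptor of the RNA sensors, and Tmem173, which encodes the DNA-sensing adaptor STING, were lower in WT-LPS than in WT. Mavs was at -0.18 in knockout mice and -1.23 in wild-type mice, and its call was lost without WT-LPS replicate 3 (highest adjusted p 0.0505). Tmem173 was at -0.58 in knockout mice and -1.72 in wild-type mice, and its call was lost without WT-LPS replicate 1 or 3 or WT replicate 2 (highest adjusted p 0.0769). Microglia markers moved in the same direction: 6 of 10 were lower in WT-LPS than in WT. Their part in the result was not tested. Among 5 inhibitors, Socs3, which blocks JAK kinases, was higher in both genotypes. It had 135, 128 and 524 TPM in CPEB1-KO-LPS, against 30.9, 13.9 and 12.5 TPM in CPEB1-KO, a log2 fold change of 3.92 ± 0.75, adjusted p = 0.00754. It had 141, 683 and 735 TPM in WT-LPS, against 26.8, 23.9 and 27.1 TPM in WT, a log2 fold change of 3.99 ± 0.75, adjusted p = 0.00253. Every LPS library lay far above every untreated one, and the call in knockout mice was lost without CPEB1-KO replicate 2 (highest adjusted p 0.0511). Pias1 and Irf2bp2 were higher in WT-LPS than in WT, at 0.74 and 0.66, and were at 0.12 and 0.67 in knockout mice. The Pias1 call was lost without WT-LPS replicate 2 or 3 or WT replicate 1 or 3 (highest adjusted p 0.0891), and with the libraries of the 2 groups alone (adjusted p = 0.0835). The Irf2bp2 call was lost without CPEB1-KO-LPS replicate 1, CPEB1-KO replicate 1, 2 or 3, WT-LPS replicate 2 or 3 or WT replicate 2 or 3 (highest adjusted p 0.138), and with the libraries of the 2 groups alone (adjusted p = 0.0915) and with a replicate block (adjusted p = 0.0766).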

How the data were processed

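The authors deposited expected counts per gene and TPM values for 12 libraries. Per the submitters' processing notes, the tools were cutadapt and RSEM and the build was mm10, with versions and aligner not given in the sources used here. TPM values as deposited are scaled within each library, so that a gene that takes many reads lowers all others. Between 3.69% and 4.66% of expected counts were not whole (tolerance 1e-06) and all were rounded. Library totals lay between 5.02 and 13.5 M, which limits the precision for genes of few reads. Genes were kept by filterByExpr, and all 12 libraries were fitted with edgeR 4.0.16 in R 4.3.3 (TMM scaling, quasi-likelihood test, 4 group means, 8 residual degrees of freedom, common biological coefficient of variation 0.282). Tests were two-sided, with Benjamini-Hochberg adjustment over 15295 genes at 0.05. A log2 fold change is given ± SE, and the SE is the change divided by the square root of F. TPM means are given ± SD. The fit was also run on simulated counts in which no library stood apart from its group. That run does not cover libraries that do. Alternatives were RLE scaling, DESeq2 1.42.0, no filter, the compared groups alone, a replicate block, limma 3.58.1 on log2(TPM + 1) and log2(TPM + 0.1), and each library left out in turn. A gene of the pathway list is not reported here. The genes, lists and roles were chosen with earlier results of these data known. Values in every library go to the 2 genes of each role with the smallest and the 1 with the largest unadjusted p in WT-LPS against WT, and to Isg15, Usp18, Mx1 and Ifitm3. Genes with an unadjusted p under 0.05 between genotypes are named too, and other values by library were chosen after they were seen. Each library came from 1 animal, so p-values measure the spread between libraries. In that spread, differences between animals, cell isolations and library preparations cannot be told apart. Deviations of same-numbered libraries from their group means correlated at 0.38, 0.15 and 0.18 in WT-LPS against WT, so blocked values stand beside calls they end there; in the other comparisons not every pair exceeded 0.1. No 2 libraries were near duplicates (chi-square per gene 8.44 to 107 between replicates). Promoter sequences come from RefSeq (GRCm38.p6) and gene positions from GENCODE M21.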

Additional observations from a re-analysis of the deposited data

How the results depend on the processing

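Of 27 genes called in WT-LPS against WT, 15 passed in all 21 alternatives, and of 14 called in CPEB1-KO-LPS against CPEB1-KO, 7 did. The count of interferon-stimulated genes called in CPEB1-KO-LPS against CPEB1-KO was 8 with the compared groups alone and ran from 7 to 23 when libraries were left out one at a time; in WT-LPS against WT it ran from 17 to 31. It was 36 there (35 higher and 1 lower, Isg20) and 17 in knockout mice without CPEB1-KO replicate 1 and CPEB1-KO-LPS replicate 3, and 20 and 13 without WT replicate 1 and WT-LPS replicate 1, both settings chosen after seeing the data. In CPEB1-KO against WT it was 1 with DESeq2 and 2 without WT replicate 1 and WT-LPS replicate 1, and it was 0 there in all settings that leave out 1 library. It was 0 in CPEB1-KO-LPS against WT-LPS and in the difference of responses in every setting that gave a value. The cause of these changes was not tested. On log2(TPM + 1), the median of all genes in WT-LPS against WT moved to 0.28, compared with -0.03 on counts, and 75.7% of all calls were higher, compared with 45.4%, while 35 interferon-stimulated genes were called.

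Labels give 1 animal per library and the same replicate numbers in each group. With a replicate block the calls were 24 in WT-LPS against WT, where same-numbered libraries deviated together and where Eif2ak2, Parp9, Daxx and, of the pathway, Irf2bp2 no longer passed. They were 10 in CPEB1-KO-LPS against CPEB1-KO, without Ifih1, Oasl2, Ifi35 and Nmi, and 0 in the 3 other comparisons. Outside WT-LPS against WT, 2 of 9 pairs correlated over 0.1 (range -0.31 to 0.22). Both were in CPEB1-KO-LPS against WT-LPS, at 0.22 for replicate 1 and 0.19 for replicate 3, while replicate 2 was at -0.31. The labels do not say what libraries of the same number share. The block changed no other call among genes named as called, apart from Stat2 in knockout mice.

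Estimates that changed sign all belonged to genes that had not passed. On log2(TPM + 1) and log2(TPM + 0.1) in WT-LPS against WT, Adar was at 0.24 and 0.25 and Pml at 0.030 and 0.035. Over the libraries left out one at a time in WT-LPS against WT, Adar ran from -0.35 to 0.14, Oas1g from -0.17 to 0.62, Ly6e from -0.82 to 0.00422, Ifi27l2a from -0.74 to 0.10 and Lgals9 from -0.16 to 0.55. In CPEB1-KO-LPS against CPEB1-KO, Isg20 ran from -0.33 to 1.29, Ly6e from -0.35 to 0.21, Uba7 from -0.54 to 0.18 and Ube2l6 from -0.29 to 1.26. Without CPEB1-KO replicate 1 and CPEB1-KO-LPS replicate 3, Uba7 was at 0.11, Ube2l6 at -0.0932 and Pml at 0.011 in CPEB1-KO-LPS against CPEB1-KO. Of the other values of single genes, 2367 kept their direction and side of the threshold, 148 fell short of it and 64 came to pass it. Totals of 5.02 to 13.5 M limit what can be said of interferon transcripts, which had 23 counts at most.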
